A study of Arabidopsis thaliana with 6 samples.

Results

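GUN5, CHLI2, CHLM and PORB encode a subunit or enzyme each of the branch of tetrapyrrole synthesis that ends in chlorophyll. They are 4 genes among 22746 probe sets tested. They were chosen by name and pathway, but with earlier results of these data known. GUN5 was read at probe set 250243_at and CHLI2 at 248920_at. CHLM was read at 254105_at and PORB at 253871_at. The platform annotation pairs each of the last 3 probe sets with its gene alone. It lists no gene for 250243_at, whose pairing with GUN5 (AT5G13630) was given with the choice of members and was not checked against probe sequences.

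Chlorophyll and heme share a trunk of reactions that turn glutamate into protoporphyrin IX. The chlorophyll branch begins where Mg chelatase inserts magnesium into that ring. Chelatase is built from a large porphyrin-binding H subunit, encoded by GUN5, and from D and I subunits, the I subunit being an ATPase with CHLI2 as its minor isoform. CHLM then methylates Mg-protoporphyrin, and PORB is one of the enzymes that reduce protochlorophyllide in the light. The GUN5 protein is also known as CHLH and as ABAR, under which names it has been studied in plastid-to-nucleus signalling and in the response to abscisic acid (ABA). Transcripts of this pathway respond strongly to light and to the clock.

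The 6 arrays compared whole Arabidopsis thaliana seedlings of ecotype Col0, 3 wild-type (WT) and 3 that overexpress the evening clock gene TOC1 (TOC1-ox). All seedlings were 12 days old, had grown on MS3 medium in days of 12 h light and 12 h dark, and were collected in darkness at zeitgeber time 15. No other allele or agent is named for either group. The labels name neither the promoter of the transgene nor how many independent lines were used. The comparison asks whether transcripts differ when TOC1 is raised. The TOC1 transcript itself was not analysed here, so how far it was raised on each array is not shown.

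The arrays were alike in scale, with medians between 6.17 and 6.27. The lowest correlation across probe sets within TOC1-ox was 0.977, between replicates 1 and 3, against at least 0.989 within WT. That value alone does not tell which of them stood apart. By limma, 405 probe sets were called at an adjusted p under 0.05 with all 6 arrays. Without TOC1-ox replicate 3 the calls rose to 2955, and without replicate 1 or 2 they fell to 38 and 20. The labelling spike-ins set the arrays numbered 3 apart, with medians of 7.59 (WT) and 7.01 (TOC1-ox) against 2.81 to 4.84 on the other arrays. Results are therefore given with and without TOC1-ox replicate 3. Of 10 marker genes of photosynthetic tissue only RCA (Rubisco activase) was measured under its name, at 13.14 to 14.67. Of 8 root markers EXP7 and PRX71 were measured, at 5.45 to 6.78 and 5.47 to 8.49, and none of 9 seed markers was. All values are log2 GCRMA values of bulk tissue, in which fewer cells of a type and less RNA per cell cannot be told apart, and levels of different probe sets are not compared.

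None of the 4 genes passed the test over all 6 arrays, but TOC1-ox replicate 3 differed from replicates 1 and 2 in each of them. CHLM and PORB were about 2.5- and 2.9-fold lower in TOC1-ox replicates 1 and 2 than in WT, while GUN5 and CHLI2 in those arrays lay within 0.36 of the WT mean on average. In TOC1-ox replicate 3 all 4 transcripts stood higher than in replicates 1 and 2, by 0.97 to 1.22 on the log2 scale. GUN5 and CHLI2 were there above every other array, CHLM was level with WT, and PORB was below WT. Of all tested probe sets, 50.1% were higher in replicate 3 than in both other TOC1-ox arrays, and 13.7% were highest there of all arrays. At a mean value of at least 6 these shares were 44.3% and 17.8%. By limma, 0 of the 4 were called at an adjusted p under 0.05, where 1.78% of all probe sets were, and 1 of the 4 (PORB) had an unadjusted p under 0.05, as did 16.4% of all probe sets.

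**Figure D1:**
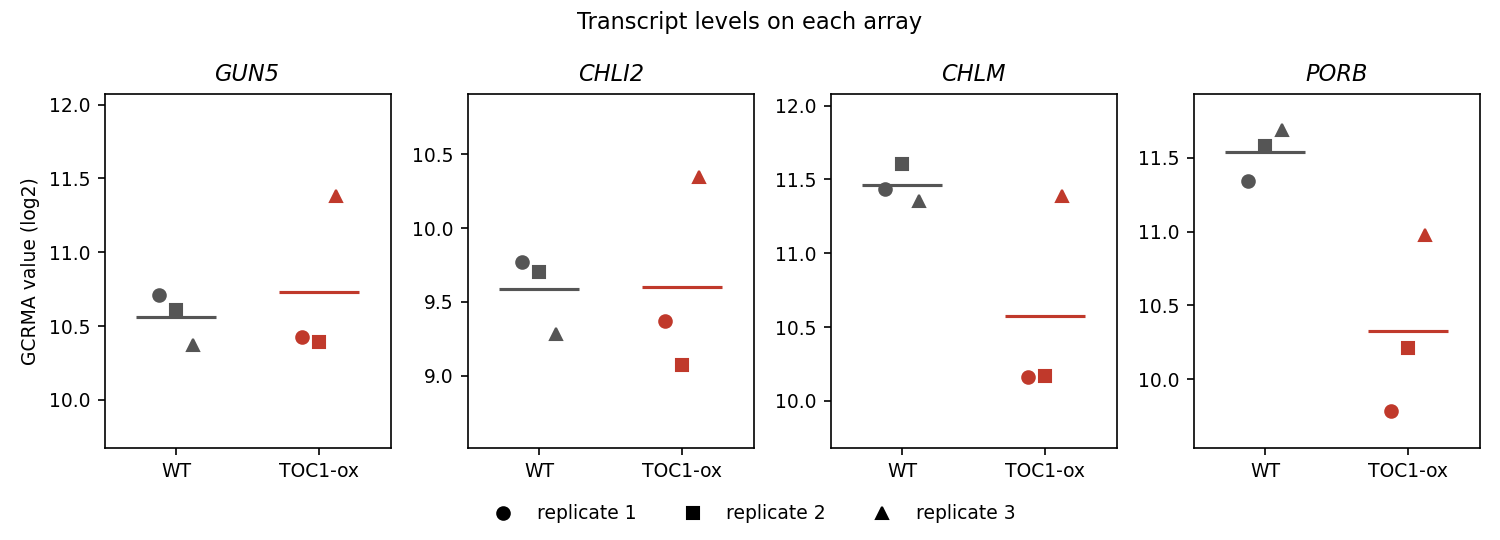
Log2 GCRMA values (vertical axis, each panel spanning the same number of log2 units) of GUN5, CHLI2, CHLM and PORB on the 3 WT arrays (grey) and the 3 TOC1-ox arrays (red). Symbols mark the replicate number and horizontal lines the group means; the triangle of TOC1-ox replicate 3 lies above the other TOC1-ox arrays in every panel, and only in the PORB panel do the groups not overlap.

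GUN5, the H subunit of Mg chelatase, had values of 10.71, 10.61 and 10.37 in WT replicates 1 to 3. In TOC1-ox replicates 1 to 3 it had 10.42, 10.39 and 11.38. The first 2 of these lay inside the WT range, and the third lay above all 5 other arrays, 1.76-fold over the WT mean. The WT mean was 10.56 ± 0.17 and the TOC1-ox mean 10.73 ± 0.56 (SD, n = 3 each). The difference was 0.17 ± 0.30 (standard error; limma, adjusted p = 0.903), with a 95% interval of -0.61 to 0.95, that is from 1.53-fold lower to 1.93-fold higher.

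Without TOC1-ox replicate 3 the sign of the GUN5 difference turned, to -0.16 ± 0.12, and its interval narrowed to -0.48 to 0.16 (limma, adjusted p = 0.541). Between arrays of the same number, TOC1-ox minus WT was -0.29 for replicate 1, -0.21 for replicate 2 and 1.01 for replicate 3. With the arrays numbered 1 and 2 alone the difference was -0.25 ± 0.05 and did not pass (limma, adjusted p = 0.102). Leaving out any other single array kept the difference above 0, at 0.07 to 0.34, with none of these passing (limma, adjusted p = 0.872 to 1.00).

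CHLI2, the minor isoform of the chelatase ATPase subunit, was also highest in TOC1-ox replicate 3. Its values were 9.77, 9.70 and 9.28 in WT and 9.37, 9.07 and 10.35 in TOC1-ox replicates 1 to 3. TOC1-ox replicate 2 was the lowest array and replicate 3 the highest, and the groups overlapped. The means were 9.59 ± 0.27 and 9.60 ± 0.67 (SD, n = 3 each), a difference of 0.01 ± 0.37 with a 95% interval of -0.94 to 0.97 (limma, adjusted p = 0.991). Without TOC1-ox replicate 3 the difference was -0.36 ± 0.20 (limma, adjusted p = 0.357). Whether transcripts of CHLI1, the main and closely related isoform, reach the CHLI2 probes was not tested, and CHLI1 has no listed probe set.

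CHLM, the Mg-protoporphyrin methyltransferase, split the TOC1-ox arrays most sharply of the 4 genes. It had 11.43, 11.60 and 11.35 in WT and 10.16, 10.17 and 11.39 in TOC1-ox replicates 1 to 3. Replicates 1 and 2 agreed to the first decimal and lay below every WT array, whereas replicate 3 lay within the WT values. Group means were 11.46 ± 0.13 and 10.57 ± 0.71 (SD, n = 3 each), and the difference of -0.89 ± 0.37 did not pass (limma, adjusted p = 0.337, 95% interval -1.84 to 0.06). Without TOC1-ox replicate 3 it was -1.30 ± 0.09, a 2.46-fold lower level, and passed (limma, adjusted p = 0.00578).

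PORB, a light-dependent protochlorophyllide oxidoreductase, was the only one of the 4 whose groups did not overlap. No overlap was found for 20.1% of all probe sets, and for 3152 of the 11802 with a mean value of at least 6. Its WT values were 11.34, 11.58 and 11.69, and its TOC1-ox values 9.79, 10.21 and 10.98. All 3 TOC1-ox arrays lay below all 3 WT arrays, replicate 3 by the least. The means were 11.54 ± 0.17 and 10.32 ± 0.60 (SD, n = 3 each), a 2.32-fold lower level in TOC1-ox. The difference of -1.21 ± 0.33 did not pass over all probe sets (limma, adjusted p = 0.164), although its own 95% interval, -2.05 to -0.38, did not reach 0. Without TOC1-ox replicate 3 it was -1.54 ± 0.18, 2.90-fold lower, and passed (limma, adjusted p = 0.0153).

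In that fit without TOC1-ox replicate 3, 2 of the 4 genes were called, both lower, where 5.94% of all probe sets were called lower. Of the 11802 probe sets with a mean value of at least 6, 1151 were called lower. Array weights, which gave TOC1-ox replicate 3 a weight of 0.303 and WT replicate 3 one of 0.135 against 0.823 to 4.41 for the others, also called CHLM and PORB lower (limma, adjusted p = 0.0118 and 0.0123), and 14.5% of all probe sets. With the arrays numbered 1 and 2 alone, CHLM passed (limma, adjusted p = 0.0241) and PORB did not (limma, adjusted p = 0.0649), where 4.53% of all probe sets were called lower. Leaving out any other single array called none of the 4. By an exact two-sided permutation test over the 6 arrays, p was 0.8 for GUN5, 1.0 for CHLI2, 0.2 for CHLM and 0.1 for PORB, where 0.1 is the smallest p that 3 against 3 arrays allow; adjusted over the 4 genes they were 1.0, 1.0, 0.4 and 0.4 (exact test).

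**Figure D2:**
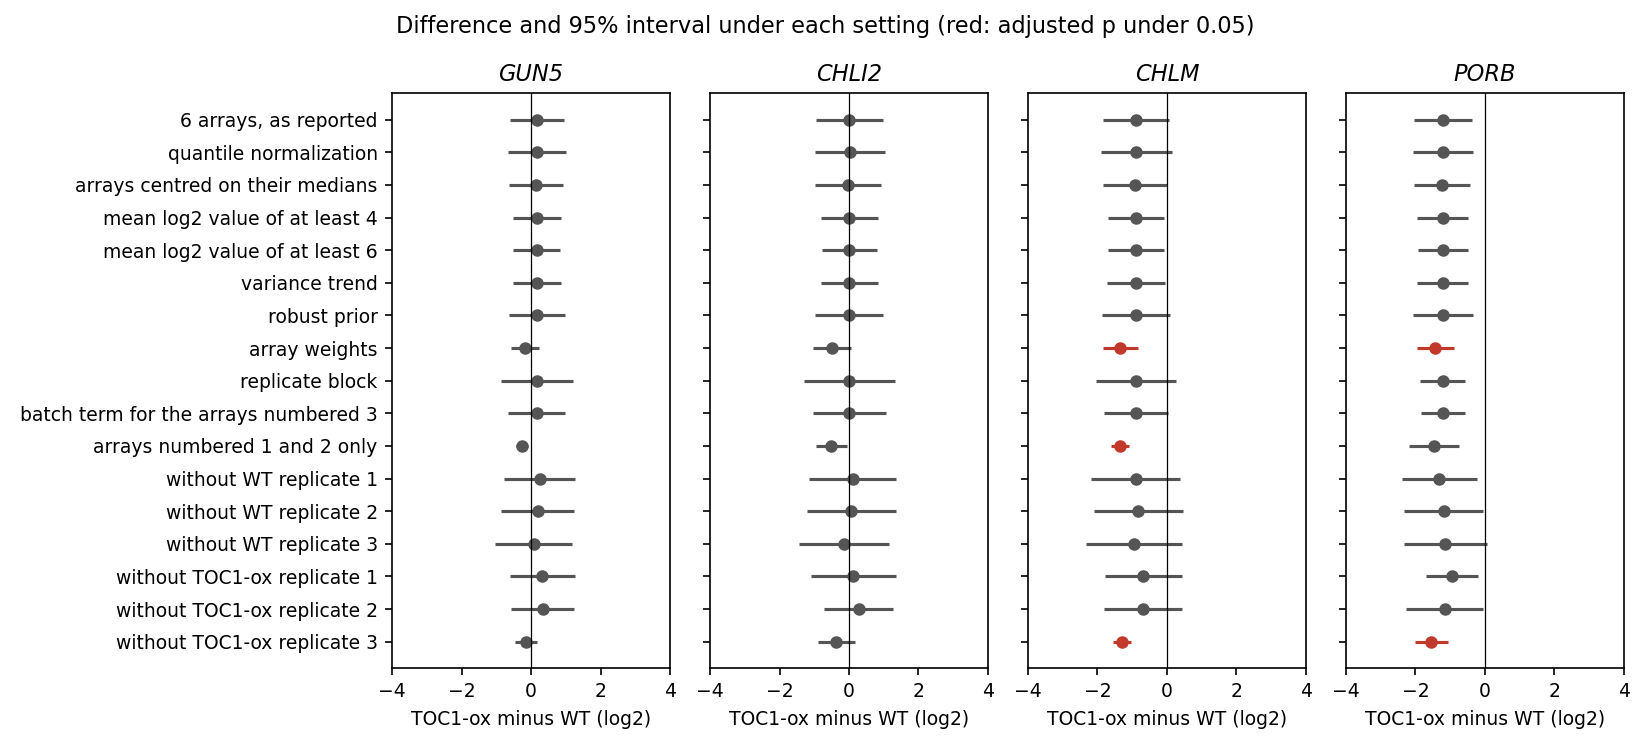
TOC1-ox minus WT (horizontal axis, log2) with its 95% interval for each of the 4 genes under the reported fit and 16 alternatives (rows), with an adjusted p under 0.05 in red. Red appears for CHLM and PORB only, in fits that leave out or weigh down TOC1-ox replicate 3; GUN5 and CHLI2 lie on both sides of 0.

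The 4 transcripts formed 2 pairs by the size of their departures from the WT mean over the arrays. They did not differ in the place of TOC1-ox replicate 3, which stood 0.97 to 1.22 above the mean of replicates 1 and 2 in each. Likeness was measured as the root mean square difference between probe sets over the 6 arrays after each was centred on its WT mean, a measure that reads the same libraries for every gene. GUN5 and CHLI2, both of Mg chelatase, differed by 0.16 on this scale. CHLM and PORB differed by 0.30, a distance that was not ranked among other probe sets. Between the pairs the distances were 0.66 to 1.00. Among 6217 single-gene probe sets with a mean value of at least 6, CHLI2 was the 14th nearest to GUN5, CHLM ranked 5356 and PORB 5821. The 5 nearest were AT4G27700, AT4G00895, AT5G57950, AT5G20880 and NDC1, a plastid NAD(P)H dehydrogenase, at distances of 0.10 to 0.13. In TOC1-ox replicate 3 these 5 lay 0.52 to 0.78 above their WT means, and their replicates 1 and 2 differed from those means by -0.37 to 0.02.

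The spread within TOC1-ox was wider than within WT for each of the 4 genes, the ratio of SDs running from 2.52 to 5.52. The distance of TOC1-ox replicate 3 above the mean of replicates 1 and 2 was 0.97 for GUN5, 1.13 for CHLI2, 1.22 for CHLM and 0.98 for PORB. Among the 11802 probe sets with a mean value of at least 6, these distances ranked 797, 554, 430 and 777, and the median distance was 0.01. RCA was also highest in TOC1-ox replicate 3, at 14.67 against 13.14 to 14.09 on the other arrays, and so was the root gene PRX71, at 8.49 against 5.47 to 6.95. The other measured root gene, EXP7, had 5.91, 5.45 and 5.95 in WT and 6.78, 6.76 and 6.31 in TOC1-ox replicates 1 to 3. Its groups did not overlap, as for 20.1% of all probe sets and 3152 of the 11802. In EXP7 replicate 3 was the lowest of the TOC1-ox arrays. Its difference was 0.84 ± 0.20 (limma, adjusted p = 0.129), and without replicate 3 it was 1.00 ± 0.18 and passed as higher (limma, adjusted p = 0.0386), in the fit that called CHLM and PORB lower and 7.05% of all probe sets higher. The part of root or photosynthetic tissue in the values of the 4 genes was not tested.

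**Figure D3:**
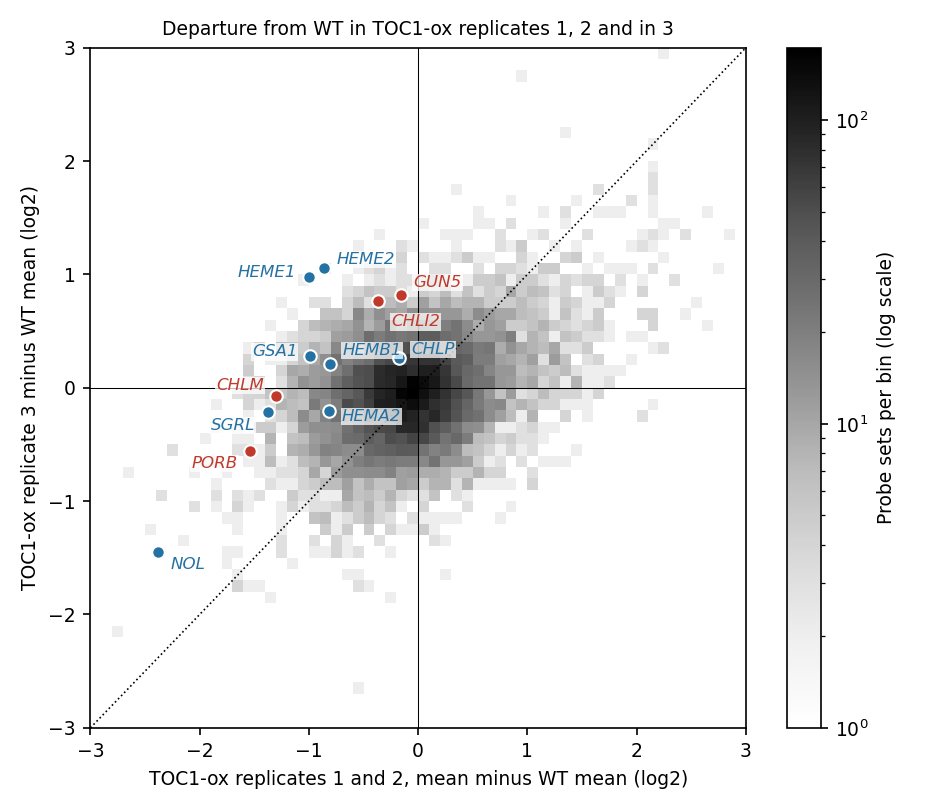
Mean of TOC1-ox replicates 1 and 2 minus the WT mean (horizontal axis, log2) against TOC1-ox replicate 3 minus the WT mean (vertical axis, log2). Grey squares count 11658 of the 11802 probe sets with a mean of at least 6, the others lying outside the axes. Red points are GUN5, CHLI2, CHLM and PORB and blue points other tetrapyrrole genes. All of these lie above the dotted line of equal departure. Over the 11802 probe sets the median distance from that line was 0.01.

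The remaining genes of the pathway were taken from lists of 58 genes drawn up by locus, of which 15 were measured under a name, the 4 included. Of the chlorophyll branch, 5 of 15 genes were measured. The fifth, CHLP (AT1G74470), encodes the geranylgeranyl reductase that makes the phytyl tail. It had 13.19, 13.03 and 13.17 in WT and 12.86, 13.04 and 13.40 in TOC1-ox replicates 1 to 3, highest in TOC1-ox replicate 3 like GUN5 and CHLI2. Its difference was -0.03 ± 0.15 (limma, adjusted p = 0.969) and -0.18 without replicate 3 (limma, adjusted p = 0.32). By limma 0 of the 5 were called, where 1.78% of all probe sets were. An unadjusted limma p under 0.05 was found for 1 of the 5, and for 16.4% of all probe sets. The median difference over the 5 was -0.03, against -0.02 over all probe sets.

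Of the trunk, 8 of 16 genes were measured, and those expressed above the bottom of the scale showed the same split of the TOC1-ox arrays. TOC1-ox replicates 1 and 2 both lay below all 3 WT arrays for 6 of the 8, and replicate 3 did not for any of these 6. Over all tested probe sets, 21.7% had replicates 1 and 2 below all WT arrays, and 10.9% had this with replicate 3 not below them. At a mean of at least 6 it held for 5 of 5 trunk genes, against 31.0% and 16.3% of all probe sets. HEMA3 and HEMB2, at 2.46 to 2.63 and 2.15 to 2.19, were at the bottom of the scale on every array. With 6 arrays 0 of the 8 were called by limma, where 1.78% of all probe sets were. An unadjusted limma p under 0.05 was found for 1 of the 8, and for 16.4% of all probe sets. The 8 had a median difference of -0.30, against -0.02 over all probe sets. All 8 were lower in TOC1-ox on average, as were 63.5% of all probe sets. HEMA3 and HEMB2 differed only by -0.01 and -0.001, so their signs carry no weight.

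HEME1 and HEME2, the uroporphyrinogen decarboxylase genes, had the largest distances of the measured pathway. HEME1 had 9.49, 9.32 and 9.34 in WT and 8.45, 8.32 and 10.36 in TOC1-ox. HEME2 had 9.22, 9.81 and 9.66 in WT and 8.52, 8.89 and 10.62 in TOC1-ox. TOC1-ox held both the lowest and the highest arrays of each gene. Replicate 3 stood 1.98 and 1.92 above the mean of replicates 1 and 2, ranks 61 and 71 of the 11802 probe sets. Over 6 arrays the differences were -0.34 ± 0.59 and -0.22 ± 0.60 (limma, adjusted p = 0.896 and 0.94).

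The earlier enzymes of the trunk showed smaller distances between replicate 3 and the other TOC1-ox arrays than HEME1 and HEME2. HEMA2, an isoform of glutamyl-tRNA reductase at the start of the pathway, had 7.84, 7.64 and 7.35 in WT and 6.67, 6.92 and 7.41 in TOC1-ox. GSA1, which makes aminolevulinic acid, had 10.42, 10.75 and 10.38 in WT and 9.50, 9.55 and 10.79 in TOC1-ox. HEMB1, which joins its molecules to porphobilinogen, had 11.16, 11.01 and 11.04 in WT and 10.25, 10.28 and 11.28 in TOC1-ox. In GSA1 and HEMB1, TOC1-ox replicate 3 was the highest array, by 0.05 and 0.12 over the highest WT value, and in HEMA2 it was within the WT values. HEMF2, a coproporphyrinogen oxidase gene later in the pathway, ranged from 4.84 to 5.59. Its distance of 0.51 was smaller than those of HEMA2, GSA1 and HEMB1, so the distances did not follow pathway order.

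Without TOC1-ox replicate 3, 3 of the 8 trunk genes passed, all lower, where 5.94% of all probe sets were called lower. Of the 11802 probe sets with a mean value of at least 6, 1151 were called lower. HEME1 fell by 1.00 ± 0.08 on the log2 scale (limma, adjusted p = 0.00773). GSA1 differed by -0.99 ± 0.13 and HEMB1 by -0.81 ± 0.07 (limma, adjusted p = 0.0212 and 0.0085). HEME2 and HEMA2 differed by -0.86 and -0.81 and did not pass (limma, adjusted p = 0.0954 and 0.0606). The median difference of the 8 in this contrast was -0.81, against -0.02 over all probe sets. GUN5, CHLI2, CHLM and PORB had a median of -0.83 there, from 2 that passed and 2 that did not.

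**Figure D4:**
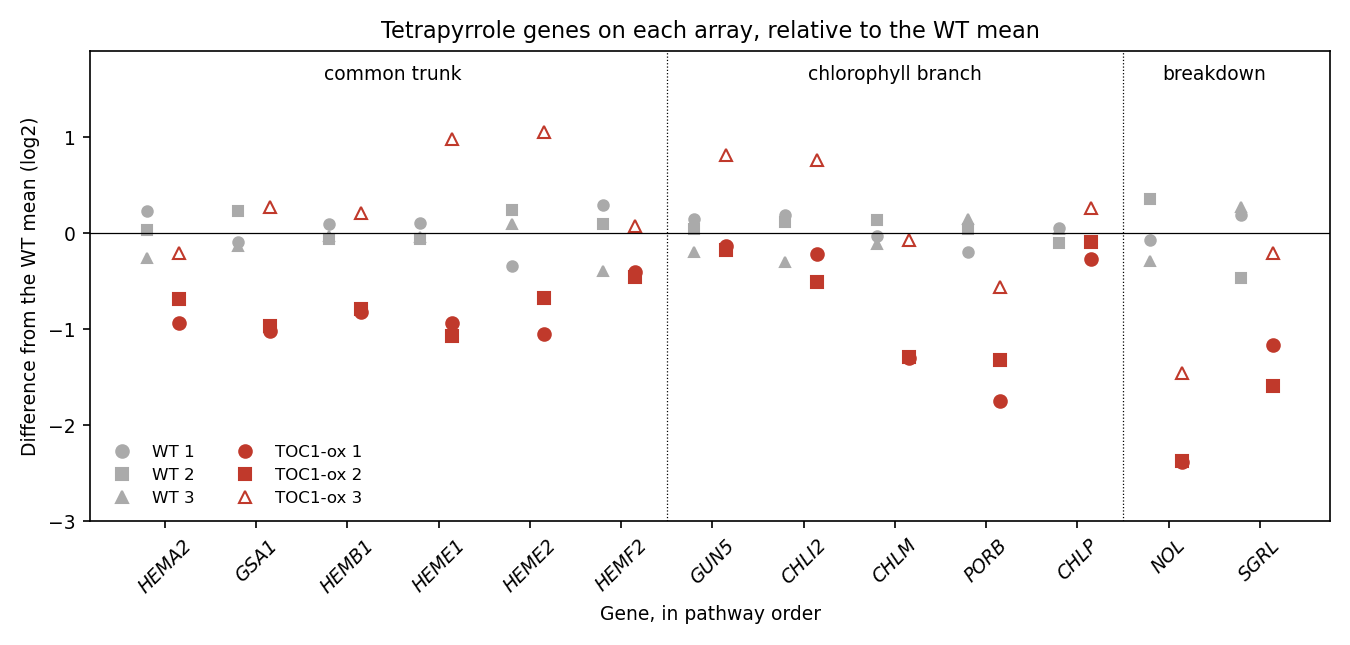
Difference of each array from the WT mean (vertical axis, log2) for the 13 measured tetrapyrrole genes above the bottom of the scale, in pathway order (horizontal axis), with WT arrays in grey and TOC1-ox arrays in red. Filled red symbols (TOC1-ox replicates 1 and 2) lie below 0 for all 13 genes. The open triangle (TOC1-ox replicate 3) lies above them for all 13, as for 50.1% of all tested probe sets, and over the WT mean in 8. Over all tested probe sets the median departure was -0.02 for the mean of replicates 1 and 2 and -0.01 for replicate 3.

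Chlorophyll breakdown was represented by 2 of 11 listed genes. NOL, a subunit of chlorophyll b reductase, had 8.28, 8.71 and 8.06 in WT and 5.97, 5.98 and 6.90 in TOC1-ox replicates 1 to 3. All TOC1-ox arrays lay below all WT arrays, again with replicate 3 the highest of them. Groups without overlap, in either direction, were found for 20.1% of all probe sets. The difference was -2.07 ± 0.32 and stood just outside the threshold (limma, adjusted p = 0.0583). It passed without TOC1-ox replicate 3 (-2.38 ± 0.21, limma, adjusted p = 0.009), with array weights (0.00309) and with the arrays numbered 1 and 2 alone (0.0307). In these fits 5.94%, 14.5% and 4.53% of all probe sets were called lower, in that order.

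NOL passed also with all 6 arrays of equal weight under some other settings. These were a mean value of at least 4 or of at least 6 (limma, adjusted p = 0.0154 and 0.0143), where 2.29% and 2.23% of probe sets were called lower. A variance trend gave 0.0301 and centring of the arrays 0.0438 (limma, adjusted p), with 0.901% and 1.11% called lower. Over the 16 alternatives its adjusted p ran from 0.00309 to 0.201. SGRL (AT1G44000), a relative of the stay-green proteins that remove magnesium from chlorophyll, had 9.76, 9.10 and 9.84 in WT and 8.40, 7.98 and 9.36 in TOC1-ox. Its difference of -0.99 ± 0.42 did not pass (limma, adjusted p = 0.346), and without replicate 3 it was -1.38 ± 0.29 (limma, adjusted p = 0.0556). None of the 8 heme, bilin and siroheme genes and none of the 8 regulators listed was measured under a name.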

How the data were processed

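The members and gene lists were chosen with earlier results of these data known. For the lists these included the PORB and CHLM values and the standing apart of TOC1-ox replicate 3. The deposited values are log2 expression values of 22810 probe sets on 6 arrays; per the submitters' processing notes the authors used GCRMA and limma (versions and roles not given in the sources used here). Such values compress differences near the bottom of the scale. Groups and replicate numbers came from the sample titles. The 64 control probe sets were left out, and no other filter was set. TOC1-ox minus WT was fitted over all 22746 others with limma 3.58.1 in R 4.3.3 (lmFit, eBayes, two-sided), with Benjamini-Hochberg adjustment and a call at an adjusted p under 0.05. The fit was tested on simulated data with the same spread in both groups and no array standing apart. That test does not cover the effect of TOC1-ox replicate 3. There is no depth in array data; the number of arrays limits the precision, and p-values measure the spread between these samples, which the series calls biological replicates. Genes were named from the platform annotation, updated by gene identifier through a table of the TAIR10.1 assembly; 13513 probe sets had a single gene. CHLI2, CHLM and PORB had 1 probe set each. The array's genome build is not stated, so no coordinates are given. Genes of the tetrapyrrole lists were named wherever measured, and the 5 genes nearest to GUN5 by the distance described. Alternatives were quantile normalization, centring, filters at 4 and 6, array weights, a robust prior, a trend of the variance, a block for the replicate number, a batch term for the arrays numbered 3, the arrays numbered 1 and 2 only, and each array left out. Figures were drawn with matplotlib 3.10.9.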

Additional observations from a re-analysis of the deposited data

How the results depend on the processing

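CHLM and PORB stayed lower in TOC1-ox under all 16 alternatives, and GUN5 and CHLI2 did not keep a sign. Not all of these alternatives could change a sign. The filters, variance trend, robust prior, replicate block and batch term leave each difference as it was and change only its error. Centring the arrays gave CHLI2 -0.019. Array weights gave -0.17 for GUN5, -0.48 for CHLI2, -1.34 for CHLM and -1.42 for PORB. They called 2 chlorophyll branch and 4 trunk genes, all lower, where 14.5% of all probe sets were called lower. The arrays numbered 1 and 2 alone gave -0.25, -0.52 and -1.35 for GUN5, CHLI2 and CHLM. They called 1 branch and 2 trunk genes, all lower, where 4.53% of all probe sets were called lower. With 1 array left out at a time, GUN5 ran from -0.16 to 0.34 and CHLI2 from -0.36 to 0.27. CHLM ran from -1.30 to -0.68 and PORB from -1.54 to -0.94. The lowest value of each was the one without TOC1-ox replicate 3. Calls ran from 0 to 2 in the branch and 0 to 3 in the trunk. Both upper counts came without TOC1-ox replicate 3, where 5.94% of all probe sets were called lower. CHLI2 was also below 0 without WT replicate 3 (-0.14). Over all alternatives limma's adjusted p was 0.102 to 1.00 for GUN5, 0.14 to 1.00 for CHLI2, 0.00578 to 0.678 for CHLM and 0.0123 to 0.398 for PORB. The cause was not tested. With the replicate block, PORB had -1.21 (limma, adjusted p = 0.138) and none of the 4 passed; same-numbered arrays deviated together at r = 0.30, -0.01 and 0.08, which does not show pairing. Calls over all probe sets numbered 405, against 0 with the block, 248 after quantile normalization, 262 with a robust prior, 852 and 641 with filters at 4 and 6, 2201 with the arrays numbered 1 and 2, 6182 with array weights, and 8 (without WT replicate 2) to 2955 (without TOC1-ox replicate 3) with 1 array left out. The counts for the trunk were added after the data were seen. The mean of several probe sets did not apply, and the planned motif searches in promoters were not run.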

Other observations

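Further plastid genes were chosen after their values were seen, so they do not test the split between TOC1-ox arrays. In each of them replicate 3 was the highest TOC1-ox array. SIRB, the ferrochelatase of siroheme synthesis, had 9.47, 9.14 and 9.07 in WT and 8.98, 8.78 and 9.15 in TOC1-ox replicates 1 to 3. The spread of SIRB within TOC1-ox was no wider than within WT. Z-ISO, a carotene isomerase, had 8.05, 7.96 and 7.96 in WT and 7.57, 7.21 and 8.59 in TOC1-ox, where replicate 3 was again above every other array. LYC, the lycopene beta-cyclase, had 8.22, 8.41 and 8.63 in WT, averaged 7.10 over TOC1-ox replicates 1 and 2 and had 7.94 in replicate 3, below every WT array. None of these 3 passed over 6 arrays (limma, adjusted p = 0.501, 0.906 and 0.161).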
